A study of Mus musculus with 4 samples.

Results

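The genes described are 35 genes of calcium handling and excitation-contraction coupling, taken by symbol from the 32285 genes counted in each file. They were followed in mouse muscle stem cells of genotype MyoD-KI, in which the red fluorescent protein tdTomato reports MyoD, the product of the muscle transcription factor gene Myod1. All cells had been grown for 5 days in a serum-rich growth medium, sorted for high tdTomato signal, and profiled with droplet single-cell RNA sequencing of transcript 3′ ends. The study has 1 group of 4 samples numbered as replicates; cells sorted for low signal were not analysed here. The labels name no separate animals, cultures or sorts, and no cells were moved to a differentiation medium as far as the labels say.

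Excitation-contraction coupling is the chain of events by which an electrical signal on the muscle membrane makes the fibre contract. In a skeletal muscle fibre the signal runs into the transverse tubules, where the voltage-sensing L-type calcium channel faces the ryanodine receptor of the sarcoplasmic reticulum, the calcium store of the cell. The receptor opens, stored calcium reaches the sarcomeres, and calcium pumps return it to the store, where buffering proteins hold it. Stem cells and dividing myoblasts have no such apparatus in working form, and its parts are made as the cells become myocytes and fuse.

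The 4 files hold 1 set of cells, and whether they are repeat libraries or repeat sequencing of 1 library could not be told. Pairs of files shared 5946 to 5965 of their barcodes, and in every pair 99.7% to 99.9% of cells correlated best with their own barcode in the other file, so the files were counted as 1 sample (n = 1). No p-value is therefore given. Each value is a mean over the files with an exact 95% counting interval, which leaves out variation between animals, cultures and sorts. The range over files shows only how repeatable the sampling of the same cells was. Of 5985 barcodes, 5944 were in all files and 5481 were kept as cells, with a median of 10369 to 11382 UMIs (unique molecular identifiers, 1 per captured transcript) per cell in the files. The 35 genes held 216446 UMIs per file, or 0.328% of all UMIs in kept cells.

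Cells were ordered by 2 readouts that are no members: Myog, the transcription factor of muscle differentiation, and the sum of the sarcomere genes Acta1 and Myh3. Levels are CPM, UMIs of a gene per 1000000 UMIs of the same cells. Stage 1 held 2572 cells with Myog under 400 CPM and stage 2 held 579 cells with Myog of 400 to 1500 CPM. Cells with at least 1500 CPM of Myog were split by Acta1 plus Myh3 into stage 3 (under 1000 CPM, 561 cells), stage 4 (1000 to 5000 CPM, 808 cells) and stage 5 (at least 5000 CPM, 961 cells). The stages are bins of cells taken from 1 culture at 1 time, so their order is that of the bins and not of hours. Summed over all 35 genes, the level was 1413 CPM in stage 1, 2859 in stage 2, 3057 in stage 3, 4592 in stage 4 and 7136 in stage 5. Over the same stages Mki67, a marker of dividing cells, went from 239 to 12.04 CPM, median UMIs per cell from 10892 to 12182 with a low of 9632 in stage 3, and Malat1, a nuclear RNA, from 7822 to 10539 CPM.

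Of the 35 genes, 31 had at least 50 UMIs in every file and were compared, as were 12895 genes in all. The 4 that did not were Ryr2, the cardiac ryanodine receptor, Pln, the cardiac pump regulator phospholamban, Kcnj2, an inward-rectifier potassium channel, and Clcn1, the chloride channel that steadies the fibre membrane. In each of the 5 stages these 4 were below 1 CPM. Kcnj2 was at 0.0730 CPM in stage 1 (interval 0.0107 to 0.252) and 0.777 in stage 5 (0.368 to 1.44). Clcn1 was at 0.440 and 0.341 CPM, with intervals that overlap. Passing the count minimum could be due to high counts in 1 stage alone, so the counts below describe the 31 genes and are no evidence about the list.

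A gene was called higher or lower between bins when the log2 ratio of CPM plus 1 passed 1, a 2-fold change. Between cells with Myog of at least 1500 and under 400 CPM, 24 of the 31 were higher, against 7.71% of all genes compared, and 2 were lower, against 17.2%. Their median log2 ratio was 2.02, beside -0.28 for all genes. Between cells with Acta1 plus Myh3 of at least 5000 and under 1000 CPM, 23 were higher (all genes 7.72%) and 2 lower (23.8%), with a median of 2.09 beside -0.42. Within cells with high Myog alone, stage 5 against stage 3, 19 were higher (all genes 5.54%) and 1 lower (12.8%), with a median of 1.25 beside -0.34. Scaling the bins so that the median gene has a ratio near 0 shifted all ratios up, and 26, 26 and 20 genes were then higher, against 9.85%, 11.5% and 8.11% of all genes with TMM factors. Among cells without a UMI of Mki67 or Top2a, a restriction added after the data were seen, the counts were 23, 19 and 16, against 7.76%, 6.75% and 5.8% of all genes.

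**Figure D1:**
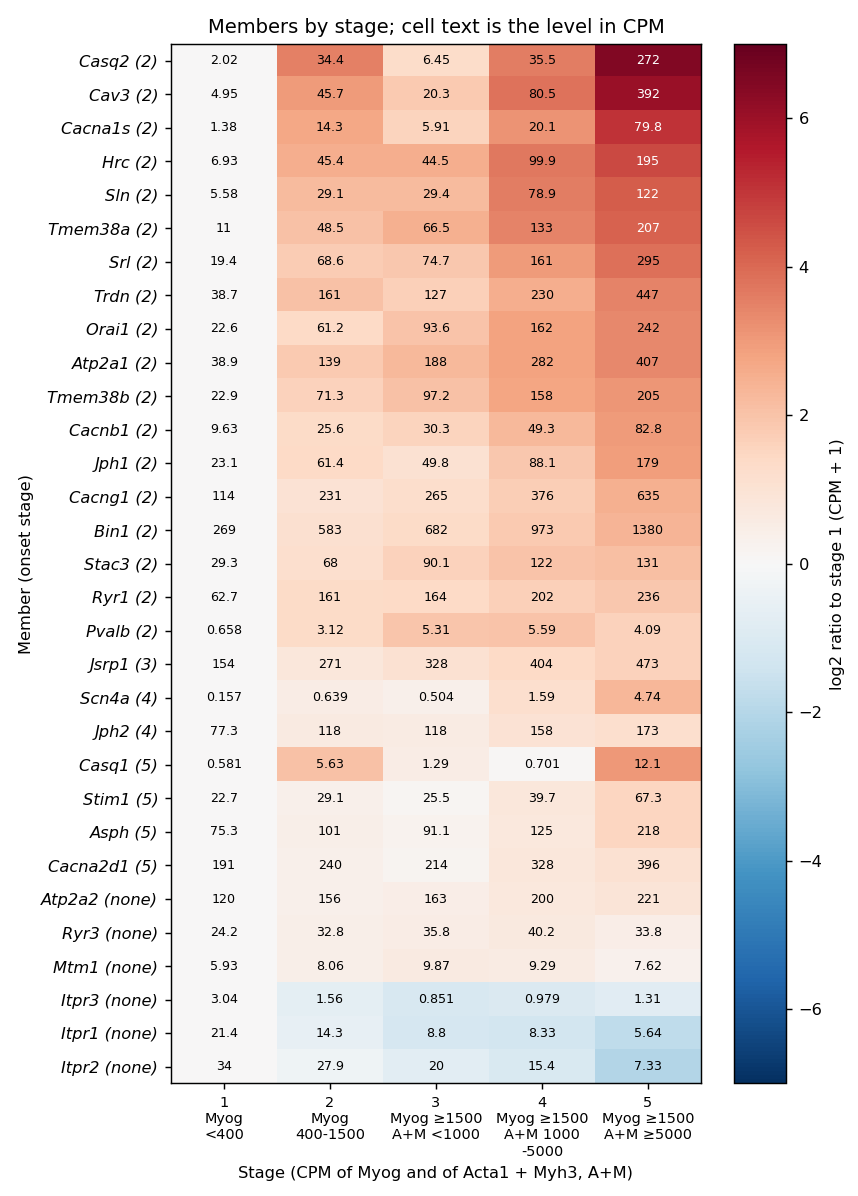
Level of the 31 compared genes in the 5 stages. Colour is the log2 ratio to stage 1 on CPM plus 1, the number in each cell is the level in CPM, and the onset stage is in parentheses. Casq2, Cav3 and Cacna1s are darkest in stage 5, and the 3 Itpr genes are the only ones lower than stage 1 in every later stage.

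The 4 regions before the transcription start are shown because their genes had the highest ratios of stage 5 to stage 1 among those with a RefSeq promoter entry lying outside the gene as GENCODE M21 has it. Each is the 250 bases before the RefSeq start on GRCm38.p6, read 5′ to 3′ on the gene's strand. Capitals mark CANNTG, the E-box that MyoD and myogenin are known to bind, searched on both strands. Casq2 lies on the plus strand (chr3:102086165-102086414), Cav3 on the plus strand (chr6:112459255-112459504), Hrc on the plus strand (chr7:45335019-45335268) and Casq1 on the minus strand (chr1:172219896-172220145).
Casq2: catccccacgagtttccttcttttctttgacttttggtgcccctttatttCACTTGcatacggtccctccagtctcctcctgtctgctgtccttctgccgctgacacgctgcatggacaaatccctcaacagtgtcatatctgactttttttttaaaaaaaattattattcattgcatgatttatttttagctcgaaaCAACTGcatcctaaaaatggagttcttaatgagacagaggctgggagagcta
Cav3: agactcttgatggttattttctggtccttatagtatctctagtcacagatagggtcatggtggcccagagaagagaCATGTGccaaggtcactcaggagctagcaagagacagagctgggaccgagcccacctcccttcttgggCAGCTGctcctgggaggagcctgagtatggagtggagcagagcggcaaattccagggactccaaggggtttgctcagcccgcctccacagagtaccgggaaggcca
Hrc: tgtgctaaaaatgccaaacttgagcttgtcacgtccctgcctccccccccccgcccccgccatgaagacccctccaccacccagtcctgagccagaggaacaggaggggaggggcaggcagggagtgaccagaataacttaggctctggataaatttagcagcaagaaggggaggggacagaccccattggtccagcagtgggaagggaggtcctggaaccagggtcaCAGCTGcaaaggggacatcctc
Casq1: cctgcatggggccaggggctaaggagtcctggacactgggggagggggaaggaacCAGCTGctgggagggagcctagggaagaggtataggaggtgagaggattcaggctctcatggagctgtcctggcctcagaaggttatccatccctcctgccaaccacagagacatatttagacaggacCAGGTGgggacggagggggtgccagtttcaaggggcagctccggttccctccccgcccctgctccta

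A promoter entry was found for 22 of the 35 genes, and the first was used where a gene had several. The shares of all promoters count every entry, so they are not per gene. CANNTG was present in 15 of these 22 (68.2%) and in 66.2% of all 32851 promoters of that length. Its form CAGCTG was in 8 of the 22 (36.4%) and in 13.0% of all: Cacna1s, Casq1, Jph2, Orai1, Cav3, Hrc, Atp2a1 and Kcnj2. The MEF2 motif was in 3 (Casq2, Clcn1 and Pvalb), beside 1.69% of all promoters. These are matches of letters and not sites of binding, which these data do not measure. Without an entry were Ryr3, Atp2a2, Cacng1, Stac3, Jph1, Trdn, Asph, Jsrp1, Srl, Sln, Tmem38b, Bin1 and Itpr1.

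The ryanodine receptors, which release calcium from the store, differed in their course. Ryr1, the skeletal receptor (chr7:29003344-29125179, minus strand), was at 62.0, 62.8, 62.2 and 63.7 CPM in stage 1 in replicates 1 to 4 and at 233, 234, 235 and 243 CPM in stage 5. The files do not overlap between these stages, and the ratio was 3.77-fold. Of that difference 56.6% was already present in stage 2 (161 CPM) and 58.2% in stage 3 (164 CPM). In all kept cells Ryr1 was thus past the 2-fold line from stage 2. Acta1 and Myh3 were also higher there, at 107 and 25.0 CPM in stage 1 and 1164 and 387 in stage 2. In stage 3 they were at 300 and 89.5 CPM, so no order of Ryr1 before them is read. Without cells that had a UMI of Mki67 or Top2a, the first stage from which Ryr1 stayed past the line was stage 4. Ryr3, a receptor found in developing muscle, did not pass the 2-fold line in any stage: 24.2 CPM in stage 1, a high of 40.2 in stage 4 and 33.8 in stage 5. Ryr2 was at 0.466 CPM in stage 1 and 0.138 in stage 5, from 14 and 1.75 UMIs per file.

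Within the voltage sensor the subunits differed in how their levels were spread over the stages. Cacna1s, the pore and voltage sensor itself (chr1:136052750-136119822, plus strand), was at 1.32, 1.54, 1.22 and 1.45 CPM in stage 1 and at 81.0, 79.1, 80.2 and 79.1 CPM in stage 5. Its stage 3 level, 5.91 CPM (interval 4.13 to 8.22), was 5.77% of the way from stage 1 to stage 5. In contrast Cacng1, the gamma subunit, was at 114 CPM in stage 1 and 265 in stage 3, with 635 in stage 5. Cacnb1, the beta subunit that brings the channel to the membrane, went from 9.63 to 30.3 and 82.8 CPM at the same stages. Cacna2d1, the alpha2-delta subunit, was at 191, 214 and 396 CPM and passed the 2-fold line in stage 5 alone, by a ratio of 2.08. This call was lost in 5 of 21 settings, among them thinned cells, higher bin edges and cells without a UMI of Mki67 or Top2a, and it moved to stage 4 in 2 others. Stac3, the adaptor that skeletal coupling needs, was at 29.3 CPM in stage 1, 90.1 in stage 3 and 131 in stage 5, with 60.0% of the difference reached in stage 3. Stage 5 to stage 3 ratios were 13.5 for Cacna1s and 1.45 for Stac3. Their log2 ratios were 3.55 (3.12 to 3.99) and 0.53 (0.39 to 0.67), with intervals that do not overlap. Stages 3 and 5 were cut to low and high Acta1 plus Myh3, so these ratios give no order of onset. Cacna1s was past the 2-fold line from stage 2, or from stage 4 with a pseudocount of 5 CPM. Ratios of stage 3 to stage 1 were 4.27 for Cacna1s, 3.14 for Cacnb1, 3.08 for Stac3, 2.33 for Cacng1 and 1.12 for Cacna2d1.

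**Figure D2:**
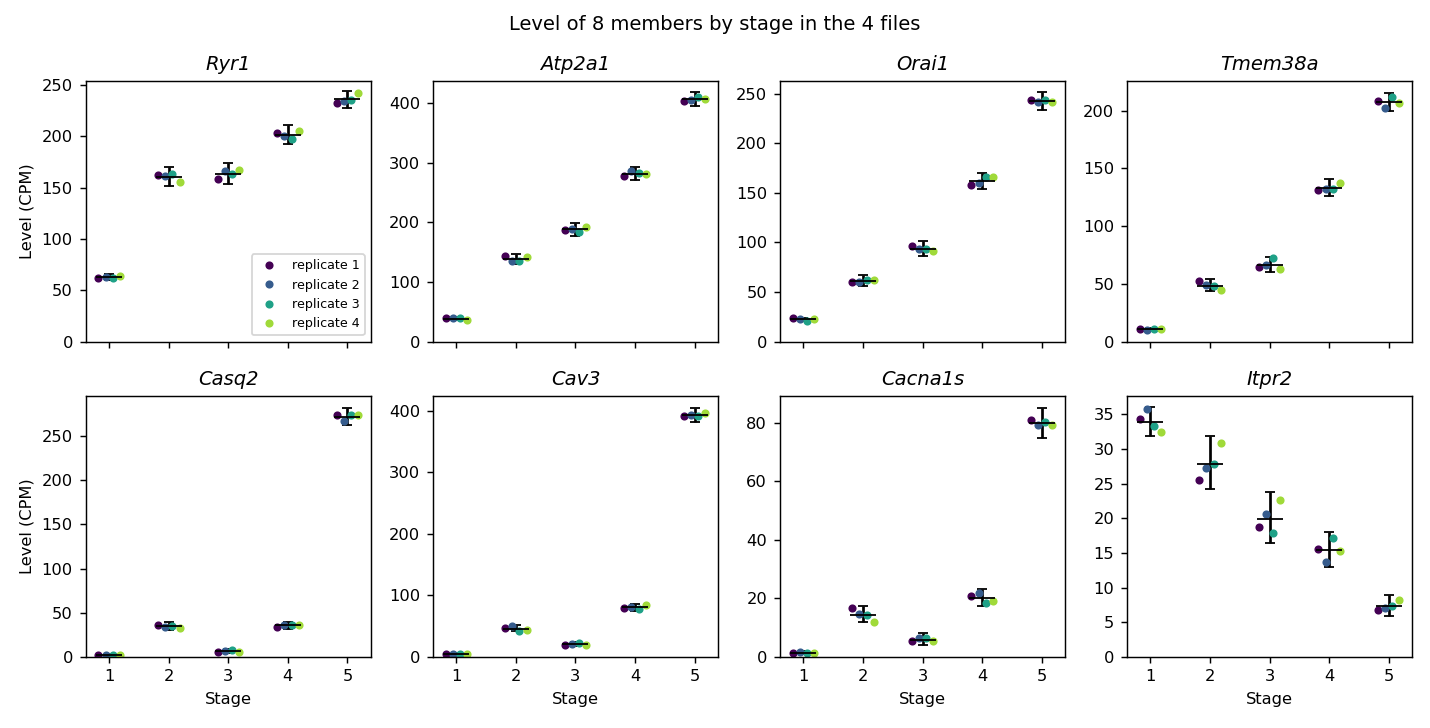
Level in CPM (linear axes from 0) of 8 genes by stage; points are the 4 files, bars the mean with its exact 95% counting interval. Ryr1 is at 161 CPM in stage 2 and 236 in stage 5, while Casq2, Cav3 and Cacna1s are at 35.5, 80.5 and 20.1 CPM in stage 4 and at 272, 392 and 79.8 in stage 5, and Itpr2 is lowest in stage 5.

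Genes of the junction between tubule and store were all higher in stage 5 than in stage 1, by 2.24-fold for Jph2 to 11.6-fold for Trdn. Trdn, triadin, which anchors the store's buffer protein at the release channel, was at 38.7 CPM in stage 1, 127 in stage 3 and 447 in stage 5. Jsrp1, a junctional protein that binds the voltage sensor, was at 154, 328 and 473 CPM, and 54.4% of its difference was present in stage 3. Asph, whose locus also gives the store protein junctin, was at 75.3, 91.1 and 218 CPM, and counts per gene do not tell its products apart. Of the junctophilins, which hold the store to the tubule, Jph1 went from 23.1 to 49.8 and 179 CPM. Jph2 went from 77.3 to 118 and 173 CPM, a ratio close to the 2-fold line: its log2 ratio over the Myog bins was 1.00, and it lay on the other side of the line in 7 of 18 settings.

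Tubule formation was represented by Cav3, Bin1 and Mtm1. Cav3, the muscle caveolin (chr6:112459505-112472872, plus strand), was at 4.88, 4.91, 5.17 and 4.83 CPM in stage 1 and at 391, 392, 391 and 395 CPM in stage 5, a ratio of 79.3. Stage 3 reached 20.3 CPM, 3.96% of that difference. Bin1, an amphiphysin that bends membrane into tubules, was at 269 CPM in stage 1, 682 in stage 3 and 1380 in stage 5, and in stage 1 a UMI of it was found in 69.1% of cells thinned to 5000 UMIs. Mtm1, a lipid phosphatase needed for the triad, had no onset, with 5.93 CPM in stage 1, 9.87 in stage 3 and 7.62 in stage 5 and intervals that overlap between stages 3 and 5.

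Of the calcium pumps and their inhibitors, Atp2a1 and Sln were higher in stage 5 and Atp2a2 and Pln were not called. Atp2a1, the fast-muscle pump SERCA1 (chr7:126445858-126463108, minus strand), was at 40.1, 39.3, 39.1 and 37.0 CPM in stage 1 and at 403, 406, 411 and 408 in stage 5, a ratio of 10.5. Atp2a2, the pump SERCA2 that many cell types make, was at 120 and 221 CPM, a ratio of 1.84 that did not pass the line. Sln, sarcolipin, a small inhibitor of the pump, was at 5.33, 6.38, 5.23 and 5.396 CPM in stage 1 and at 124, 120, 117 and 127 CPM in stage 5. Pln, the related inhibitor of heart and slow muscle, was at 0.265 and 0.118 CPM from 8 and 1.5 UMIs per file.

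Buffers inside the store were at their highest in stage 5. Casq2, the cardiac and slow-muscle calsequestrin (chr3:102086415-102146514, plus strand), was at 1.87, 2.21, 2.20 and 1.80 CPM in stage 1 and at 274, 267, 274 and 274 CPM in stage 5, a ratio of counts of 135, the highest of the 31. Its stage 1 counts were within the limit for free RNA given with the shares of cells, so the ratio is one of counts and not of expression. Its level was 6.45 CPM (interval 4.58 to 8.85) in stage 3 and 35.5 in stage 4, so that 12.4% of the difference was reached in stage 4. Casq1, the fast-muscle calsequestrin (chr1:172209894-172219868, minus strand), was at 0.452, 0.545, 0.691 and 0.635 CPM in stage 1 and at 12.8, 12.4, 11.8 and 11.3 CPM in stage 5. In stage 4 it was at 0.701 CPM (interval 0.275 to 1.46), which overlaps stage 1. Hrc, a histidine-rich buffer of the store (chr7:45335290-45338974, plus strand), went from 6.93 to 44.5 and 195 CPM in stages 1, 3 and 5, and Srl, sarcalumenin, from 19.4 to 74.7 and 295 CPM.

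The store's counter-ion channels and the genes of store-operated entry were also higher in stage 5 than in stage 1. Tmem38a, the muscle-type TRIC channel that lets potassium balance the calcium leaving the store, was at 10.996 CPM in stage 1, 66.5 in stage 3 and 207 in stage 5. Tmem38b, the widely expressed TRIC channel, was at 22.9, 97.2 and 205 CPM. Orai1, the membrane channel through which calcium refills the store, was at 22.6, 93.6 and 242 CPM, a ratio of 10.7. Stim1, the sensor that opens Orai1, was at 22.7, 25.5 and 67.3 CPM, a ratio of 2.96. In stage 3 the ratios to stage 1 were 4.15 for Orai1 and 1.12 for Stim1. The channel was thus higher where Myog was high and Acta1 and Myh3 were low, and its sensor was not.

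Inositol trisphosphate receptors, which release calcium from the store in non-muscle cells, went the other way. Itpr2 was at 34.3, 35.7, 33.4 and 32.4 CPM in stage 1 and at 6.77, 7.03, 7.36 and 8.15 CPM in stage 5. Itpr1 was at 21.4 and 5.64 CPM. Both were called lower over the Myog bins, with log2 ratios of -1.34 (-1.51 to -1.18) for Itpr2 and -1.45 (-1.65 to -1.24) for Itpr1. Itpr3 was at 3.04 and 1.31 CPM with a log2 ratio of -0.94 (-1.29 to -0.57), short of the line. Within cells with high Myog only Itpr2 was called lower, at -1.33 (-1.70 to -0.96), and under scaling to the median gene it was not.

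Of the remaining genes, Scn4a, the sodium channel that carries the muscle action potential, was at 0.157 CPM in stage 1 (interval 0.0492 to 0.374) and 4.74 in stage 5 (3.61 to 6.11). Pvalb, parvalbumin, the calcium buffer of fast fibres, was at 0.658 CPM in stage 1, 5.31 in stage 3, 5.59 in stage 4 and 4.09 in stage 5. Its intervals overlap from stage 3 to stage 5. Both genes were sparse, with 59.5 and 51.5 UMIs per file in stage 5.

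**Figure D3:**
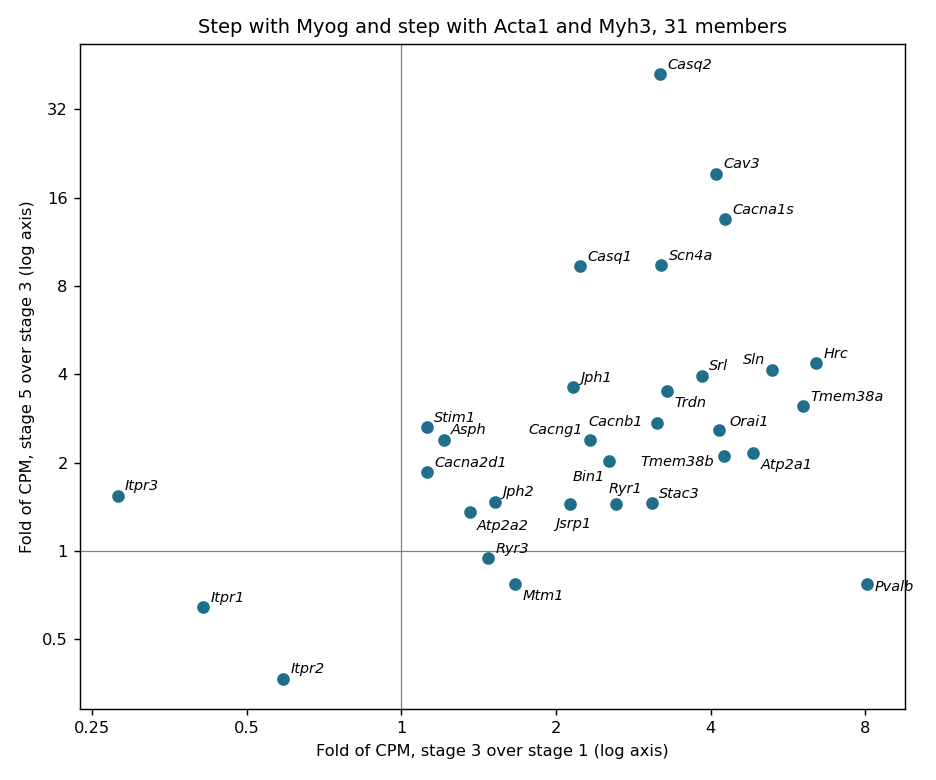
Fold of CPM from stage 1 to stage 3 (x, log axis) against fold from stage 3 to stage 5 (y, log axis), 1 point per compared gene. Casq2 (42.2), Cav3 (19.3) and Cacna1s (13.5) are highest on the y axis, and Pvalb, at 8.08 on the x axis, is below 1 on y.

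Onset was set as the first stage at least 2-fold above stage 1, with the counting interval of the ratio above 1, that stayed so in all later stages. It fell in stage 2 for 18 of the 31 genes (2.52% of all genes), in stage 3 for 1, Jsrp1 (1.32%), in stage 4 for 2, Jph2 and Scn4a (2.42%), and in stage 5 for 4, Casq1, Cacna2d1, Asph and Stim1 (2.61%). No onset was found for Ryr3, Atp2a2, Mtm1 and the 3 Itpr genes (91.1%). Stage 2 was mixed, however: 111 of its 579 cells (19.2%) had Acta1 plus Myh3 of at least 1000 CPM. Without these cells, a restriction added after the data were seen, 13 genes had their onset in stage 2 (1.66% of all genes) and 6 in stage 3 (2.18%), since Casq2, Cacng1, Jph1, Srl and Bin1 moved from stage 2 to stage 3. Without the 3577 cells that had a UMI of Mki67 or Top2a, 13 genes had their onset in stage 2 (2.38% of all genes), 1 in stage 3 (0.954%), 6 in stage 4 (2.34%), 3 in stage 5 (2.68%) and 8 had none (91.6%). The onset of Ryr1, Jsrp1, Casq2, Cacng1 and Stim1 was then stage 4 and that of Stac3 stage 3. Jph2, Pvalb and Cacna2d1 lost theirs, and Atp2a2 had one in stage 5. The log2 ratio of Ryr1 over the Myog bins was then 1.17 instead of 1.72.

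Among the genes named next, the mixture bore most on Casq2, Cav3, Cacna1s and Casq1. Without those 111 cells the stage 2 level was 2.66 CPM for Casq2 instead of 34.4, 12.9 for Cav3 instead of 45.7, 3.98 for Cacna1s instead of 14.3, and 0.992 for Casq1 instead of 5.63. For Ryr1 it was 136 instead of 161 CPM and for Stac3 61.7 instead of 68.0. The share of the difference between stage 1 and the highest stage that was reached in stage 3 is therefore given also, which does not use stage 2. Stage 3 was cut to low and stage 5 to high Acta1 plus Myh3. Genes that vary with these have a low share by the cut, so the share is no order of onset. In stage 3 the ratios to stage 1 were 3.19 for Casq2, 4.10 for Cav3 and 4.27 for Cacna1s. For Ryr1, Jsrp1 and Stac3 they were 2.61, 2.12 and 3.08. This share was over 50% for Ryr1, Stac3, Jsrp1 and Pvalb among genes with an onset. The onset of Pvalb was lost with a pseudocount of 5 CPM and without cells with a UMI of Mki67 or Top2a, and fell in stage 3 in thinned cells. The share was below 10% for Casq2, Cav3, Cacna1s, Casq1, Stim1 and Scn4a. It was between 10% and 50% for the other 15, among them Atp2a1 (40.6%), Orai1 (32.3%) and Trdn (21.7%).

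A group of 38 cells combined Myog of 400 to 1500 CPM with Acta1 plus Myh3 of at least 5000 CPM. Their median was 16465 UMIs per cell, against 12182 in stage 5, and the part of doublets in this was not tested. Several genes differed there from stage 5 by more than counting error, in both directions. Casq1 was at 54.2 CPM there (interval 37.8 to 75.4), against 12.1 (10.3 to 14.2) in stage 5. Trdn was at 610 CPM (550 to 672) and Ryr1 at 318 (277 to 366), both also above stage 5. Stac3, at 78.2 CPM (58.2 to 103), and Bin1, at 1028 (951 to 1109), were below their stage 5 levels. Casq2, at 342 CPM (299 to 391), was above its stage 5 level, and Cav3, at 362 (318 to 413), was within counting error of it. For Casq1, 4 of the 38 cells held 50% of the UMIs, 19 had none in any file, and without the richest cell the level was 45.6 CPM.

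**Figure D4:**
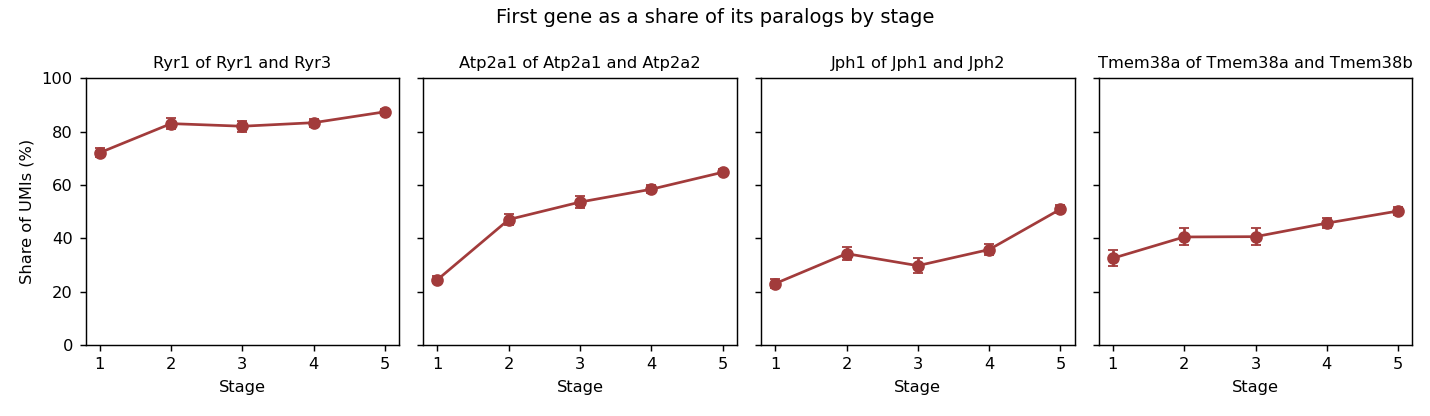
Share (%) of the first gene in the summed UMIs of a pair of paralogs by stage, with exact 95% intervals. Atp2a1 goes from 24.5% to 64.8% and Jph1 from 22.97% to 50.9% between stages 1 and 5, while Ryr1 is at 72.1% and 87.5%.

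Pairs of paralogs were compared as shares of their summed UMIs, of which only the change over stages is read, since 3′ counts of different genes are not on 1 scale of length. Atp2a1 made up 24.5% of Atp2a1 and Atp2a2 in stage 1 (interval 23.3% to 25.7%), 53.6% in stage 3 and 64.8% in stage 5 (63.7% to 65.8%). Ryr1 made up 72.1% of Ryr1 and Ryr3 in stage 1, 82.1% in stage 3 and 87.5% in stage 5. Jph1 was at 22.97%, 29.7% and 50.9% of both junctophilins, and Tmem38a at 32.5%, 40.6% and 50.2% of both TRIC channels. Casq1 was 4.25% (3.62% to 4.97%) of both calsequestrins in stage 5, and no change from stage 1 is read, since the Casq2 counts there were within the limit for free RNA. Sln was 95.5% of Sln and Pln in stage 1 and 99.9% in stage 5. Itpr1 was 36.7% and 39.5% of the 3 Itpr genes, with intervals that overlap.

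The share of cells with a UMI was taken after thinning each cell to 5000 UMIs, which left out 284 of 5481 cells. Between stages 1 and 5 it went from 0.709% to 57.4% for Casq2, from 2.26% to 70.7% for Cav3 and from 0.605% to 29.4% for Cacna1s. Without thinning these were 1.71% and 74.7%, 4.91% and 85.5%, and 1.497% and 53.1%. Atp2a1 was found in 15.8% and 83.0% of thinned cells, Ryr1 in 23.7% and 64.7%, and Itpr2 in 15.2% and 3.15%. Free RNA in the droplets can give such UMIs to cells that do not make a transcript. Among abundant myocyte genes the lowest ratio of stage 1 to stage 5 was that of Actc1, 0.920%, an upper limit for this effect in Actc1. It holds for other genes only if free RNA has the mix of stage 5 cells, which was not measured. Casq2, at 0.743%, was below it and its stage 1 counts as a whole are not read as expression. Cav3 was at 1.26% and Cacna1s at 1.73%, and whether these exceed free RNA was not tested. Stage 1 was mixed too, with 19 cells that had Acta1 plus Myh3 of at least 1000 CPM. Of its 61.25 Casq2 UMIs per file, 18 were in 3 of these cells, which had at least 5000 CPM. In the 2553 stage 1 cells under 1000 CPM, Casq2 was at 1.39 CPM instead of 2.02.

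**Figure D5:**
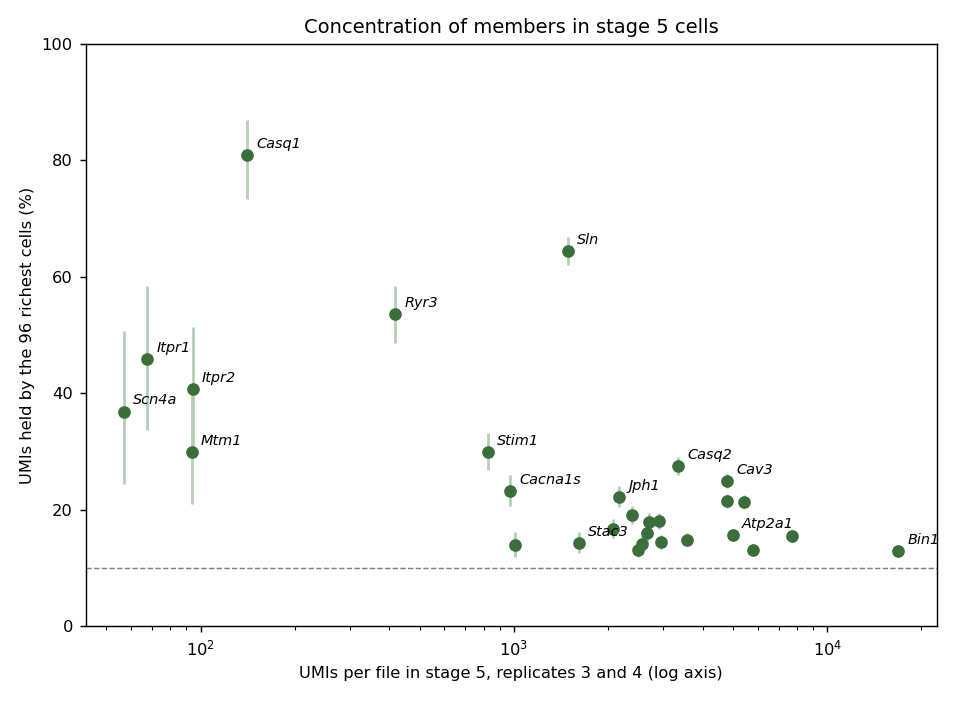
Share (%) of a gene's stage 5 UMIs in replicates 3 and 4 held by the 96 cells richest in it in replicates 1 and 2, against UMIs per file (log axis); bars are exact 95% intervals and the dashed line is the share of cells, 10%. Genes with under 50 UMIs per file or with a UMI in fewer than 96 cells of replicates 1 and 2 are left out. Casq1 (80.9%), Sln (64.5%) and Ryr3 (53.6%) lie above Stac3 (14.3%), which has more UMIs. The interval of the sparse gene Itpr1 (45.9%) overlaps that of Ryr3.

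Within stage 5 some genes were held by few cells. The 96 of 961 cells richest in a gene in replicates 1 and 2 were chosen, and the gene's UMIs were then counted in replicates 3 and 4. The files may share molecules, which would raise this share for every gene. Chi-square per degree of freedom of gene counts between pairs of files was 0.903 to 1.03, where independent draws give about 1. The part of shared molecules in the share was not tested. For Casq1 the chosen cells had as few as 1 UMI in both files together, and no share is given for Pvalb, of which 66 cells had a UMI there. The share was 80.9% (73.4% to 87.0%) for Casq1, 64.5% (62.0% to 66.9%) for Sln and 53.6% (48.7% to 58.4%) for Ryr3. For Bin1 it was 12.9%, for Stac3 14.3%, for Atp2a1 15.7% and for Ryr1 17.99%. Sln thus had no UMI in any file in 494 of the 961 cells and a UMI in every file in 206, and 51 cells held 50% of its UMIs. For Casq1 these numbers were 810, 27 and 20. Sparse genes reach high shares more easily, and Mtm1, with 93.5 UMIs per file, was at 29.9% and Itpr2, with 94.5, at 40.7%. Itpr1, with 67.5, was at 45.9% (33.7% to 58.5%), an interval that overlaps that of Ryr3.

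The cells rich in these genes, which were singled out after their shares were seen, were described in replicates 3 and 4. In cells rich in Casq1, Casq2 was at 520 CPM against 245 in the other stage 5 cells, Cacna1s at 131 against 73.6, and Cav3 at 562 against 373. Stac3 was lower in them, 99.7 against 136 CPM. Their median Acta1 plus Myh3 was 15622 CPM against 9165, and their median Myog was 2729 against 4506, so they lay further along one readout and lower on the other. Cells rich in Sln differed less: Ryr3 was at 53.3 CPM against 32.2, Atp2a1 at 498 against 399 and Bin1 at 1390.5 against 1380.4. In cells rich in Ryr3, Sln was at 239 CPM against 110, with median Acta1 plus Myh3 of 8626 against 9705. Malat1, a nuclear RNA, was also higher in cells rich in Ryr3, at 12371 against 10336 CPM, as was the long gene Ttn, at 9015 against 7241, and the part of nuclear RNA in this was not tested. Of the 96 cells in each set, which are 9.99% of stage 5 cells, 16 (16.7%) were shared between Sln and Ryr3, 11 (11.5%) between Sln and Casq1 and 9 (9.38%) between Casq1 and Ryr3.

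Other genes of calcium signalling in muscle, 113 from lists of channels, pumps, sensors and triad proteins, gave a background for the members. Of the 93 with enough counts, 23 were higher (all genes 7.71%) and 18 lower (17.2%) over the Myog bins. Their median log2 ratio was -0.02, beside -0.28 for all genes. The share of lower genes was close to that of all genes, so it is not read as a result about these lists. Tcap, the titin cap of the sarcomere's Z-disc, was at 122 CPM in cells with high Myog against 3.59 in those with low Myog. Trim72, a membrane repair protein, was at 27.5 against 0.733. Mylk4, a myosin light chain kinase, was at 288 against 11.96, Dhrs7c, an enzyme of the store membrane, at 22.7 against 0.623, and Capn3, a muscle calpain, at 11.2 against 0.339. Lower were Cav1, the caveolin of non-muscle cells, at 4.22 against 32.5, and Slc8a1, the sodium-calcium exchanger of the heart, at 5.66 against 30.5. Cacnb2, a beta subunit best known from the heart, was at 6.42 against 40.0, while Cacnb1, its skeletal paralog, was at 60.2 against 9.63. Rcan2, a calcineurin regulator, was at 6.18 against 28.3.

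Markers of other cell types were measured beside these genes. Of 9 cardiomyocyte markers 4 were over 1 CPM over all kept cells, and their sum went from 36.4 CPM in stage 1 to 3140 in stage 5, of which Myl4, also a light chain of developing skeletal muscle, made 30.9 and 3050 CPM. Nppb and Myl7 were at 0 in every stage. None of the 6 endothelial and 6 immune markers was over 1 CPM over all kept cells, and by stage the highest were Pecam1 at 1.396 CPM in stage 1 and Tek at 1.14 in stage 3. The sum of 8 fibroblast markers went from 440 CPM in stage 1 to 143 in stage 5, and that of 12 stem cell markers from 497 to 127. The sum of 8 pericyte and smooth muscle markers went up with the members, from 943 to 2046 CPM, of which Des, an intermediate filament gene that muscle cells also express, made 819 and 1996 CPM. Abcc9 went from 0.795 to 31.8 CPM, while Notch3 went from 88.6 to 6.49 and Pdgfrb from 8.73 to 0.518. The sum of 5 glial markers went from 4.97 to 11.3 CPM, of which Ngfr made 2.81 and 9.24. The part of these markers in the levels of the members was not tested.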

How the data were processed

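The deposited values are whole UMI counts per gene and cell barcode in 4 matrices, made by the authors with Cell Ranger. The file headers name version 7.1.0, the submitters' processing notes name version 3.1.0 and the builds mm10 and GRCm39; the annotation, barcode calling and use of intronic reads are not given in the sources used here. Intronic reads, where counted, would raise long genes, so levels of different genes are not compared. The files held 62627341 to 68898900 UMIs each. Gene positions are from GENCODE M21 on GRCm38, matched by Ensembl ID for 99.85% of the 32285 genes.

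Cells are barcodes found in every file whose mean over the files was no fewer than 1000 genes, with less than 10% of UMIs from mitochondrial genes. The files were counted as 1 sample, so no test was run. UMIs were summed per file and bin, divided by the bin's total (CPM) and averaged over files. Log2 ratios are on CPM plus 1, which understates the change of low genes. Intervals are exact 95% Poisson, binomial (Clopper-Pearson) or conditional binomial intervals at the mean count of 1 file and cover counting error only. Genes with at least 50 UMIs in every file were compared. The ratio script was tested on simulated data. Scrublet, as implemented in scanpy 1.11.5, marked 0 of 5481 cells as doublets. Its threshold was not examined, so this is not read as an absence of doublets, and none were removed. Leaving out the 5% with the highest scores was an alternative. Others were TMM factors (edgeR 4.0.16) and median-ratio factors, pseudocounts, folds, bin edges, stricter cell filters, thinning and leaving out each file. Python 3.11.15 with numpy 2.4.6 and scipy 1.17.1 was used.

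The 35 genes and all lists were chosen with earlier results of these data known. All 35 are named; of the 113 other pathway genes, the rule names the 6 highest and 4 lowest log2 ratios over the Myog bins, of which 1 is not reported here.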

Additional observations from a re-analysis of the deposited data

Results flagged for a closer look

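Among 73 values compared over the 4 files, 5 had 1 file far from the others, and chance alone gives such a value in about 5% of sets. Scn4a over all kept cells was at 1.116 CPM in replicate 3 and at 1.374 to 1.411 in the others. Its log2 ratio over the Myog bins was 1.804 in replicate 1 and 1.659 to 1.68 in the others, from few counts in every file. Sln had a log2 ratio of 3.585 in replicate 2 and 3.79 to 3.831 in the others, and Jsrp1 one of 1.465 in replicate 3 and 1.423 to 1.428 in the others. Over the bins of Acta1 plus Myh3, 22 members were higher in replicate 4 and 24 in each of the others. The 463 barcodes left out had a median mitochondrial share of 40.9%. In them the members held 7709 CPM of the UMIs that were not mitochondrial, from 4163 UMIs per file. Kept cells were at 3405 CPM on the same scale. With mitochondrial UMIs counted, kept cells were at 1413 CPM in stage 1 and 7136 in stage 5. The stage of the left-out barcodes was not tested.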

How the results depend on the processing

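The main counts, the counts of onset in stage 2 and the paralog shares kept their direction in all settings run. In 122 values those counts stayed within 1.5 times the first count, or paralog shares and the median share of cells within their counting intervals. In 3 they did not. The change of the Jph1 share from stage 1 to 5 was 24.8 percentage points with lower bin edges instead of 28.0. The median share of cells with a UMI over the members in stage 5 was 81.3% without thinning and 41.3% at 3000 UMIs instead of 57.4%. Among the other values, the onset counts other than stage 2 and the log2 ratio of each member, 553 stayed within such bounds and 161 moved. No called ratio changed sign. Counts of higher members over the 3 comparisons ranged from 19 to 26, 19 to 26 and 14 to 20, and 13 to 20 genes had their onset in stage 2. Without each file in turn they were 23 to 24, 22 to 23, 19 and 18. Ryr3 and Mtm1, which were never called, went from 0.57 and 0.48 to -0.20 and -0.22 among cells without a Mki67 or Top2a UMI. Atp2a2, Cacna2d1, Stim1 and Casq1 each crossed the 2-fold line in 2 of 18 settings and Itpr3 in 4. With size factors the median of all genes moved from -0.28 to -0.01 (TMM). No paired analysis was possible because the study has 1 group. Depth limits Ryr2, Pln, Kcnj2, Clcn1, Scn4a and Pvalb, whose counts per stage were few.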
